A study of Mus musculus with 24 samples.

Results

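MAP kinase phosphatases are the dual-specificity phosphatases that switch MAP kinases off. The gene list held 9 members chosen by name, namely Dusp1, Dusp2, Dusp4, Dusp5, Dusp6, Dusp8, Dusp10, Dusp14 and Dusp16, and 8 of the 9 had a probe that could be assigned to them, out of 18434 protein-coding genes with a probe. Dusp5 was not analysed here. Transcript levels were measured on 24 one-colour Agilent whole-mouse-genome arrays in immortalized mouse embryonic fibroblasts lacking Ku70 (Ku70-/-, also named Xrcc6), a subunit of the heterodimer that opens non-homologous end joining. In the first set of 15 arrays, the groups of 3 independent experiments were untreated control cells, cells given 20 mM potassium bromate (KBrO3) for 1 hr and collected at 4 or 24 hr, and cells co-exposed to KBrO3 and bisphenol A (BPA) and collected at 4 or 24 hr. Co-exposed cells had 150 µM BPA for 1 hr before, during and after the KBrO3 hour. The second set of 9 arrays held its own 3 untreated controls and 3 arrays each of cells given 150 µM BPA alone for 4 or 24 hr by the labels, times that the methods put an hour longer. The labels place the controls of the first set at 4 hr and give the second set's controls no time, so the 24 hr groups were set against controls not labelled as 24 hr controls. Ku70 was deleted in controls and treated cells alike and no wild-type cells were included, so nothing here is a response to the deletion, and a single immortalized line limits the groups as a model. KBrO3 is an oxidant that leaves oxidized bases in DNA, and BPA is a plastic monomer with weak oestrogen-like activity.

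MAP kinases (ERK, JNK and p38) are active only when a threonine and a neighbouring tyrosine are both phosphorylated, and the MAP kinase phosphatases remove both groups. Dusp1, Dusp2 and Dusp4 encode nuclear enzymes that are themselves induced by the kinases they turn off, which makes them a negative feedback arm. Dusp6 encodes a cytoplasmic, ERK-selective enzyme, Dusp8, Dusp10 and Dusp16 encode enzymes that act mainly on JNK and p38, and Dusp14 encodes a small atypical enzyme without the kinase-binding domain of the others. In fibroblasts many of these transcripts are short-lived and respond quickly to growth factors and stress.

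The promoters of 3 members are shown because Dusp2 had the widest range of levels among the members and because Dusp1 and Dusp8 were the members holding a cyclic AMP response element (CRE) in this window. Each run spans 250 bases before to 50 bases after the start site in RefSeq's GRCm38.p6 annotation, written on the gene's own strand: Dusp1 at chr17:26508423-26508722 (minus strand), Dusp2 at chr2:127335909-127336208 (plus strand) and Dusp8 at chr7:142095235-142095534 (minus strand). Capitals mark the CRE core TGACGT or its complement ACGTCA.
Dusp1: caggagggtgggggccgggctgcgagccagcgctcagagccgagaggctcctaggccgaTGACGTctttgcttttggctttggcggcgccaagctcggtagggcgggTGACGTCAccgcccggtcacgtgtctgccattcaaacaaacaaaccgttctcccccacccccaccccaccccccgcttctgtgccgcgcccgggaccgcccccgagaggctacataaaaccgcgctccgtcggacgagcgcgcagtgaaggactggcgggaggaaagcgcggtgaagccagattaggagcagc
Dusp2: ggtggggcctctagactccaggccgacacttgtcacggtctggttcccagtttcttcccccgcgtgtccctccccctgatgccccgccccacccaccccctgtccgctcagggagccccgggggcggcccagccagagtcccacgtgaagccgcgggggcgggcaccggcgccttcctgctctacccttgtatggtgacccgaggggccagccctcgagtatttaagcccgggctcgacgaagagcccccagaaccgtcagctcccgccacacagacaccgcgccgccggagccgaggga
Dusp8: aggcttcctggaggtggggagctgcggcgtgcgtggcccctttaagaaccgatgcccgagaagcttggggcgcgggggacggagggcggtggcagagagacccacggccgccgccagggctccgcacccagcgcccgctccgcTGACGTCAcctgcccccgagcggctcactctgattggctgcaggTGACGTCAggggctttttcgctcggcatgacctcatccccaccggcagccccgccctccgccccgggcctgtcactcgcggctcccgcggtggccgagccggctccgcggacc
The table held windows for 7 of the 8 members with a probe. The full CRE, TGACGTCA, was found once in the Dusp1 window, at −143 to −136 from the start site, and 2 times in the Dusp8 window, at −107 to −100 and at −63 to −56. The core alone stood once more in the Dusp1 window, at −191 to −186. Among all 32851 promoter windows of the same length, 1.79% held the full CRE and 7.51% held its core on either strand. No match to the CRE, to its core, to the AP-1 motif TGANTCA (7.81% of windows), to the CArG box (1.63%), to the antioxidant response element TGACNNNGC (12.4%) or to TATAAA (13.6%) was found in the windows of Dusp2, Dusp6, Dusp10, Dusp14 or Dusp16. The CRE core lies within the CRE, and the antioxidant element was matched once in the Dusp1 window, next to the CRE, and can overlap other motifs. A match gives only that these letters stand in this window.

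All values below are log2 signals after each array's 75th percentile was subtracted, so a level of 0 equals that percentile and levels were compared only within a probe and within a set. Of the probes, 57.7% to 68.1% per array were well above background where KBrO3 was studied and 76.4% to 79.4% where BPA alone was. The median residual SD, over the 27180 probes tested in both, was 0.106 for the first set against 0.318 for the second, so the first resolved smaller differences. A gene was called altered when limma's Benjamini-Hochberg adjusted p over all probes was below 0.05 and the fold was beyond 1.5. The 12 fibroblast markers were all on the array, with 11 or 12 of them well above background on every array, and the leukocyte marker Ptprc and the endothelial marker Pecam1 were above background on 0 arrays. The Xrcc6 probe read −0.60 to 0.57 over the first 15 arrays and −0.55 to 0.73 over the other 9, well above background on each, but its place relative to the deleted part is not known here, so it checks nothing about the labels. The cells are a bulk sample, in which fewer cells of a kind and less RNA per cell cannot be told apart.

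At 4 hr after KBrO3, 6 of the 8 measured MAP kinase phosphatases were higher than in the control and 0 were lower, where 21.1% of the 14100 genes tested were called higher and 22.8% lower. The median log2 difference over the 8 members was 2.34 against 0.02 over all genes tested. Under co-exposure the same 6 members were higher and Dusp16 was lower, beside 28.1% of genes called higher and 26.5% lower, with a median of 1.84 over the members. In that comparison 4 of 6 leukocyte markers tested were called higher and 5 of 12 fibroblast markers lower, and their part in the members' differences was not tested. The 6 risen members were Dusp1, Dusp2, Dusp4, Dusp6, Dusp8 and Dusp10. Both comparisons used the same 3 control arrays.

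Dusp2, the nuclear phosphatase also known from activated lymphocytes, had the largest difference among the members in both comparisons. Its probe (mm7, chr2:127079047-127079106, plus strand) read −5.29, −5.05 and −5.15 in the controls, 1.38, 1.45 and 1.32 at 4 hr after KBrO3, 0.27, 0.19 and 0.35 at 4 hr of co-exposure, −2.41, −2.52 and −2.62 at 24 hr after KBrO3, and −2.17, −2.15 and −2.14 at 24 hr of co-exposure. No group overlapped another, and the order ran from KBrO3 at 4 hr down through co-exposure at 4 hr, co-exposure at 24 hr and KBrO3 at 24 hr to the control. The rise at 4 hr was 6.55 ± 0.070 (SE) on the log2 scale after KBrO3, or 93.6-fold (adjusted p = 9.12e-15), and 5.43 or 43.2-fold under co-exposure (adjusted p = 2.64e-14). The size of this fold depended on the background correction, since normexp gave 3.52 after KBrO3 and 2.46 under co-exposure on the log2 scale, both still called.

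Dusp1, the founding nuclear member, moved by less and in the same direction at 4 hr. Its probe (mm7, chr17:24690398-24690455, minus strand) read 1.28, 1.26 and 1.22 in the controls, 3.00, 3.00 and 3.06 at 4 hr after KBrO3, 2.23, 2.18 and 2.24 at 4 hr of co-exposure, 1.06, 1.13 and 1.13 at 24 hr after KBrO3, and 0.055, −0.0053 and 0.032 at 24 hr of co-exposure. The 5 groups did not overlap, and co-exposure at 24 hr was the lowest of them. The rise was 3.41-fold after KBrO3 (log2 1.77 ± 0.039 SE, adjusted p = 1.83e-12) and 1.95-fold under co-exposure (log2 0.97, adjusted p = 2.25e-10).

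Dusp4, whose nuclear enzyme acts on ERK and JNK, was measured by a brighter and a dimmer probe. The brighter probe (mm7, chr8:33583106-33583165, plus strand) read −3.87, −4.05 and −4.04 in the controls, 0.48, 0.44 and 0.45 at 4 hr after KBrO3, −0.11, −0.11 and −0.019 at 4 hr of co-exposure, −3.04, −3.07 and −3.15 at 24 hr after KBrO3, and −2.81, −2.87 and −2.49 at 24 hr of co-exposure. The groups again stood apart, in the same order as for Dusp2. The rise was 21.7-fold after KBrO3 (log2 4.44 ± 0.087 SE, adjusted p = 7.64e-13) and 15-fold under co-exposure (log2 3.90, adjusted p = 1.59e-12). With normexp these rises were 2.16 and 1.66 on the log2 scale, and both stayed called. The dimmer probe was not well above background in any control, so it gives bounds, at least 18.4-fold higher after KBrO3 and at least 8.77-fold higher under co-exposure. Such a bound is the treated groups' mean against the higher of each control array's lowest detected signal and the probe's own.

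Dusp6, the cytoplasmic ERK phosphatase, read 3.02, 2.94 and 2.86 in the controls (mm7, chr10:98828759-98828818, plus strand), 5.88, 5.86 and 5.83 at 4 hr after KBrO3, 5.67, 5.64 and 5.67 at 4 hr of co-exposure, 2.63, 2.71 and 2.81 at 24 hr after KBrO3, and 3.59, 3.71 and 3.25 at 24 hr of co-exposure. The 4 hr groups were far above the other three, and although no groups overlapped, the neighbours KBrO3 and co-exposure at 4 hr did not pass the test (adjusted p = 0.0972), nor did the control and KBrO3 at 24 hr (adjusted p = 0.0516). At 4 hr the rise was 7.54-fold after KBrO3 (log2 2.91 ± 0.095 SE, adjusted p = 4.84e-11) and 6.58-fold under co-exposure (log2 2.72, adjusted p = 6.84e-11).

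Dusp10, a phosphatase of JNK and p38, had readings of −1.08, −1.15 and −1.21 in the controls (mm7, chr1:183600757-183600816, plus strand), 2.00, 1.99 and 1.92 at 4 hr after KBrO3, 1.77, 1.78 and 1.79 at 4 hr of co-exposure, −1.13, −1.20 and −1.25 at 24 hr after KBrO3, and −0.73, −0.57 and −0.70 at 24 hr of co-exposure. Control and KBrO3 at 24 hr overlapped and the remaining groups stood apart. The rise at 4 hr was 8.68-fold after KBrO3 (log2 3.12 ± 0.052 SE, adjusted p = 2.35e-13) and 7.62-fold under co-exposure (log2 2.93, adjusted p = 2.72e-13).

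Dusp8, another JNK and p38 phosphatase, had the smallest of the 6 rises. Its brighter probe (mm7, chr7:138507011-138507070, minus strand), which carries an older clone name on the array, read −0.67, −0.72 and −0.51 in the controls, 0.56, 0.58 and 0.62 at 4 hr after KBrO3, 0.089, 0.10 and 0.14 at 4 hr of co-exposure, −0.60, −0.75 and −0.68 at 24 hr after KBrO3, and −1.32, −1.32 and −1.66 at 24 hr of co-exposure. Control and KBrO3 at 24 hr overlapped. The rise was 2.33-fold after KBrO3 (log2 1.22 ± 0.085 SE, adjusted p = 4.68e-08) and 1.68-fold under co-exposure (log2 0.75, adjusted p = 4.55e-06), the latter inside the fold threshold with normexp (log2 0.55).

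Dusp16 and Dusp14 did not share the rise. Dusp16, whose enzyme is JNK-selective, read −0.49, −0.54 and −0.67 in the controls (mm7, chr6:134751853-134751912, minus strand), −0.95, −0.96 and −1.0 at 4 hr after KBrO3, −1.57, −1.62 and −1.61 at 4 hr of co-exposure, −1.85, −1.80 and −1.76 at 24 hr after KBrO3, and −2.03, −1.71 and −2.01 at 24 hr of co-exposure. The control was the highest group and the 24 hr groups overlapped each other. Dusp16 was 2.05-fold lower under co-exposure at 4 hr (log2 −1.03 ± 0.076 SE, adjusted p = 7.14e-08) by this probe alone, since its other probes stood at 0.08 and 1.19 and the mean of the 3 at 0.080, while after KBrO3 its −0.40 (adjusted p = 0.000421) stayed inside the fold threshold.

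Dusp14, the atypical enzyme, read −0.068, −0.14 and −0.31 in the controls (mm7, chr11:84118020-84118079, minus strand), 0.037, 0.023 and 0.010 at 4 hr after KBrO3, −0.62, −0.55 and −0.62 at 4 hr of co-exposure, −2.01, −0.21 and −0.29 at 24 hr after KBrO3, and −0.55, −0.33 and −0.28 at 24 hr of co-exposure. One array, replicate 1 of KBrO3 at 24 hr, lay far below the other two of its group and left the differences between groups for this probe with an SE of 0.35. Against the control, Dusp14 differed by 0.19 after KBrO3 (adjusted p = 0.633) and by −0.43 under co-exposure (adjusted p = 0.282) at 4 hr, and neither passed the test.

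**Figure D1:**
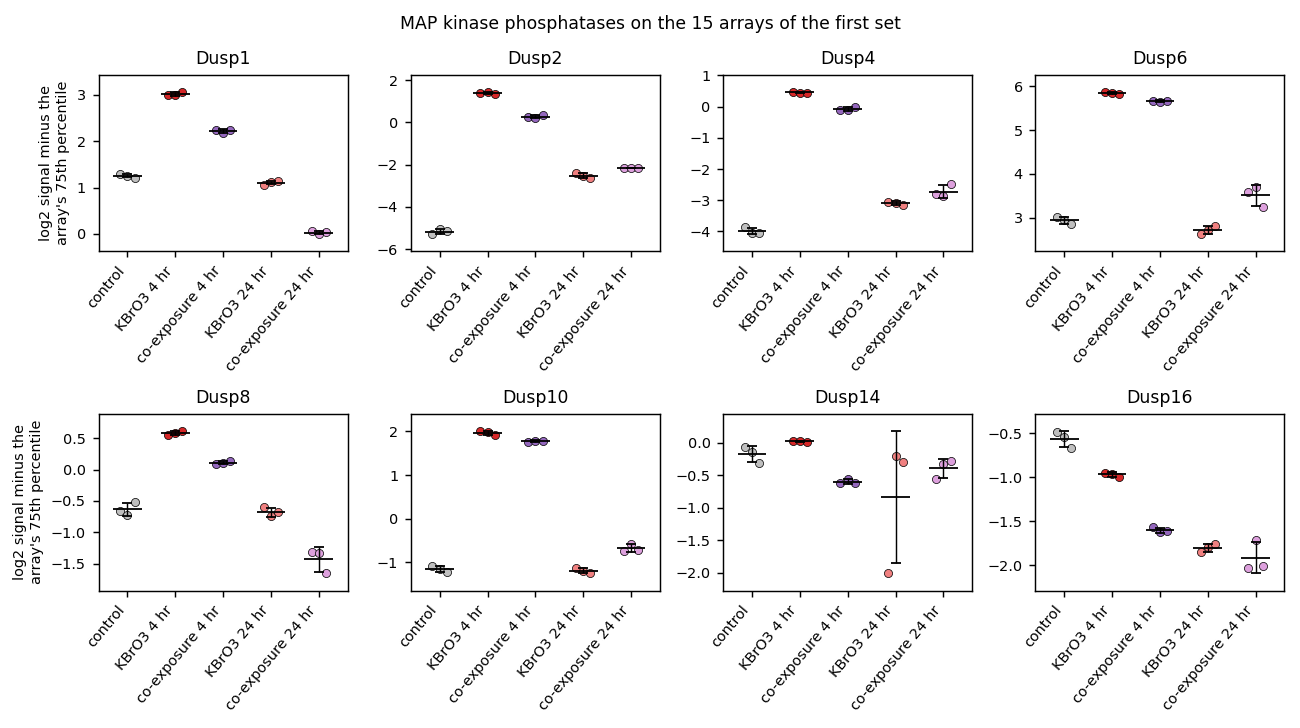
Log2 signal relative to each array's 75th percentile (vertical axes) for the representative probe of each member in the 5 groups of the first set (horizontal axes). Points are single arrays and the line and bar are the mean and SD of 3. The Dusp2 points climb from between −5.29 and −5.05 in the controls to between 1.32 and 1.45 at 4 hr after KBrO3, whereas the Dusp16 points descend from the control to the 24 hr groups.

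Arrays were run on several slides, and in the first set the comparison of KBrO3 at 4 hr with the control was the only one against the control with arrays on a common slide. Within that slide, 3 KBrO3 arrays against 1 control array, the differences were 6.53 for Dusp2, 4.5 for Dusp4, 3.18 for Dusp10, 2.99 for Dusp6, 1.81 for Dusp1, 1.10 for Dusp8, 0.33 for Dusp14 and −0.30 for Dusp16. In the remaining comparisons of these arrays with the control, the treatment cannot be told apart from the slide. The leukocyte marker list moved at the same time, its summed log2 level lying between −0.46 and −0.23 in the controls and between 0.39 and 0.48 at 4 hr after KBrO3, with 5 to 7 of its 10 markers above background and Ptprc above background on no array, and its part in the rise of Dusp2 was not tested.

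At 24 hr, 2 of the 6 risen members, Dusp2 and Dusp4, were still called higher than the control, under either treatment. After KBrO3, 2 of 8 members were higher (Dusp2 and Dusp4) and 1 was lower (Dusp16), beside 12.7% of genes called higher and 21% called lower. Dusp2 was still 6.27-fold above the control (log2 2.65 ± 0.070 SE, adjusted p = 2.02e-11) and Dusp4 1.86-fold above it (log2 0.90, adjusted p = 1.86e-06). Dusp16 was 2.35-fold lower (log2 −1.24, adjusted p = 3.16e-08). The log2 differences of the others were −0.05 for Dusp10, −0.04 for Dusp8, −0.15 for Dusp1, −0.23 for Dusp6 and −0.66 for Dusp14, none of them called. Leaving out 1 array moved the Dusp14 value between −0.98, which was called without replicate 2 of KBrO3 at 24 hr, and −0.076 without replicate 1, and it was also called without replicate 3, at −0.94.

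At 24 hr of co-exposure, 2 members were higher and 3 were lower, beside 15.7% of genes called higher and 23.9% called lower. Dusp2 was 8.06-fold (log2 3.01, adjusted p = 3.67e-12) and Dusp4 2.40-fold above the control (log2 1.26, adjusted p = 6.46e-08). Dusp1 was 2.34-fold lower (log2 −1.23 ± 0.039 SE, adjusted p = 5.16e-11), Dusp8 1.74-fold lower (log2 −0.80, adjusted p = 3.41e-06) and Dusp16 2.55-fold lower (log2 −1.35, adjusted p = 1.01e-08). Dusp6 stood at 0.57, or 1.49-fold, just inside the fold threshold (adjusted p = 0.000176), and Dusp10 at 0.48, or 1.40-fold. Dusp14 stood at −0.21. With median scaling Dusp8 was at −0.48 and not called, while Dusp6 at 0.89 and Dusp10 at 0.80 were. The fibroblast markers were lower at this time, their summed log2 level falling from between 10.95 and 11.04 in the controls to between 9.58 and 9.76 after KBrO3 and between 9.06 and 9.28 under co-exposure, with 11 of the 12 called lower in each comparison, and their part in the members' differences was not tested.

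With normexp background correction in place of the scanner's own, the 24 hr differences of the dim genes were lost. Dusp2 then differed from the control by −0.034 after KBrO3 and by 0.27 under co-exposure, and Dusp4 by −0.86 and −0.48, none of them called. The 4 hr rises of both genes were called under either correction.

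**Figure D2:**
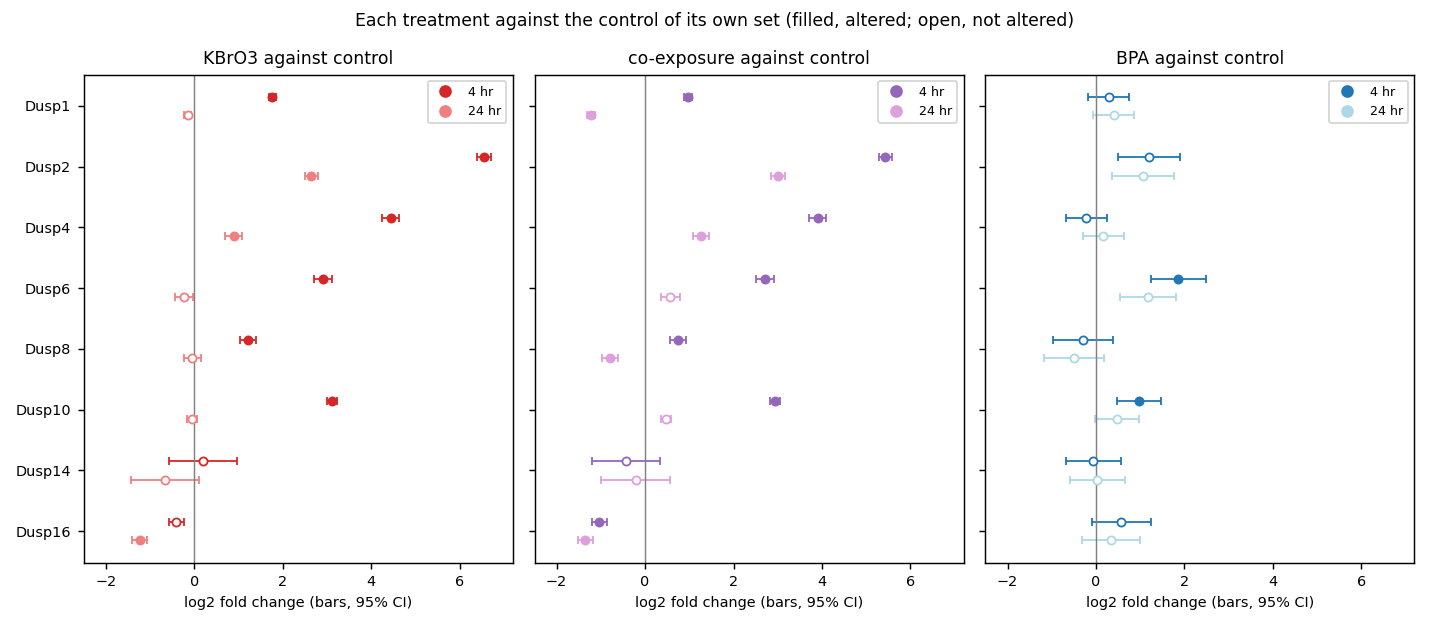
Log2 difference from the control of the same set (horizontal axes) for each member (vertical axis) in the 6 treated groups, with bars for the 95% confidence interval. Filled points were called altered and open points were not. At 4 hr of KBrO3 and of co-exposure the points of 6 members are filled to the right of 0. At 24 hr of both Dusp2, at 2.65 after KBrO3 and 3.01 under co-exposure, lies furthest right.

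From 4 to 24 hr after KBrO3, the representative probes of all 8 members were called lower and 0 higher, beside 28.6% of genes called lower and 19.2% called higher. On the log2 scale the differences were −3.90 for Dusp2, −3.54 for Dusp4, −3.16 for Dusp10, −3.14 for Dusp6, −1.92 for Dusp1, −1.26 for Dusp8, −0.86 for Dusp14 and −0.83 for Dusp16. Adjusted p ran from 3.14e-13 for Dusp10 to 0.0434 for Dusp14. The KBrO3 arrays of 4 hr and of 24 hr shared no slide, so time cannot be told apart from the slide here. The Dusp14 fall kept its call in 2 of the 15 fits that left out an array, and without the low array the difference was −0.27 (adjusted p = 0.0134) and inside the fold threshold. The second Dusp14 probe was higher at 24 hr, by 0.72 (adjusted p = 1.22e-07), and the mean of both was −0.069 (adjusted p = 0.749), so a fall of Dusp14 rests on 1 probe. Under co-exposure 6 members fell and 0 rose from 4 to 24 hr, beside 34.1% of genes called lower and 23.4% called higher. The differences were −2.64 for Dusp4, −2.45 for Dusp10, −2.42 for Dusp2, −2.19 for Dusp1, −2.15 for Dusp6 and −1.55 for Dusp8, with adjusted p no higher than 5.01e-09. Dusp16 at −0.32 and Dusp14 at 0.21 were not called, although with the slide as a fixed block Dusp14 stood at −1.61 (adjusted p = 1.69e-06), a value that links the slides through the low array of KBrO3 at 24 hr alone, and its second probe was at 0.39 without the block. The markers moved in these comparisons as well, with 11 of 12 fibroblast markers and 3 of 6 leukocyte markers tested called lower from 4 to 24 hr after KBrO3, and 9 of 12 and 5 of 6 under co-exposure, and their part in the members' falls was not tested.

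Co-exposure was then set against KBrO3 alone at the same time, which asks what the BPA added. At 4 hr, 3 members were lower and 0 were higher, beside 9.06% of genes called lower and 10.6% called higher. Dusp2 was 2.17-fold lower (log2 −1.11 ± 0.070 SE, adjusted p = 2.12e-07), Dusp1 1.74-fold lower (log2 −0.80, adjusted p = 3.35e-08) and Dusp16 1.55-fold lower (log2 −0.63, adjusted p = 2.88e-05). Dusp4 at −0.54 and Dusp8 at −0.48 did not reach the fold threshold with the brighter probe of each. The dimmer Dusp4 probe was lower by more, at −1.07 (adjusted p = 1.40e-05), and so was the mean of the Dusp4 probes, at −0.81 (adjusted p = 4.97e-07), so Dusp4 was called lower by both of these. Dusp14 at −0.62 did not pass (adjusted p = 0.152), but was called without replicate 1 of KBrO3 at 24 hr, which is not in this comparison and only shares its spread (adjusted p = 5.00e-05). That call is of the first probe. The second Dusp14 probe had means of −1.202 under co-exposure and −1.035 after KBrO3, and the mean of its probes was not called. The 95% interval of the Dusp6 difference ran from −0.40 to 0.012 and that of Dusp10 from −0.30 to −0.074, so both intervals lay within 1.5-fold of no difference. With normexp the Dusp2 and Dusp16 differences were −1.07 (adjusted p = 0.171) and −0.44 (adjusted p = 0.0520), and Dusp1 was the one member called. Dusp1 and Dusp2 stood below their levels after KBrO3 alone and above those of the control. In this comparison 2 of 12 fibroblast markers (S100a4 furthest, at −0.72), the leukocyte marker Cd68 (−0.59) and the epithelial marker Krt18 (−0.83) were called lower. No marker was called higher, and their part was not tested.

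At 24 hr of the same comparison, Dusp6 was higher and Dusp1 and Dusp8 were lower, 1 and 2 members beside 6.55% and 7.59% of genes called. Dusp1 was 2.11-fold lower (log2 −1.08 ± 0.039 SE, adjusted p = 1.53e-09), Dusp8 1.69-fold lower (log2 −0.76, adjusted p = 1.63e-05) and Dusp6 1.74-fold higher (log2 0.80, adjusted p = 2.75e-05). Dusp10 at 0.53 (1.44-fold), Dusp2 at 0.36 and Dusp4 at 0.36 did not reach the fold threshold. One slide held 2 arrays of each group, and within it the differences were −1.10 for Dusp1, −0.61 for Dusp8 and 0.89 for Dusp6. Here 5 of 12 fibroblast markers (Thy1 furthest, at −1.71), 2 of 2 epithelial markers and the endothelial marker Kdr (−0.98) were called lower. The leukocyte marker Cd68 (0.71) was called higher, and the part of these markers was not tested. At 4 hr no slide held both groups.

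The difference between these differences was tested as an interaction, co-exposure minus KBrO3 at 24 hr less the same at 4 hr. It was positive for 4 members and negative for 0, beside 13.2% of genes called positive and 13.4% called negative. Among the markers Cd68 (1.30) was called positive, and 2 of 12 fibroblast markers (Thy1 furthest, at −1.32), Krt8 (−2.43) and Kdr (−0.87) negative. Their part was not tested. The interaction was 1.48 ± 0.099 (SE) for Dusp2 (adjusted p = 6.14e-07), 0.99 for Dusp6 (adjusted p = 0.000101), 0.90 for Dusp4 (adjusted p = 0.000105) and 0.72 for Dusp10 (adjusted p = 1.44e-05). For each of these 4 members the co-exposure mean stood below that of KBrO3 at 4 hr and above it at 24 hr. Of those differences, with the representative probes, Dusp2 at 4 hr and Dusp6 at 24 hr were called. With normexp the interactions of Dusp2 (1.37, adjusted p = 0.245), Dusp4 (0.88, adjusted p = 0.496) and Dusp10 (0.63, adjusted p = 0.0519) were not called. Dusp1 had an interaction of −0.28 and was lower with BPA at both times. Because the 4 hr groups shared no slide, the interaction cannot be told apart from the slide.

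**Figure D3:**
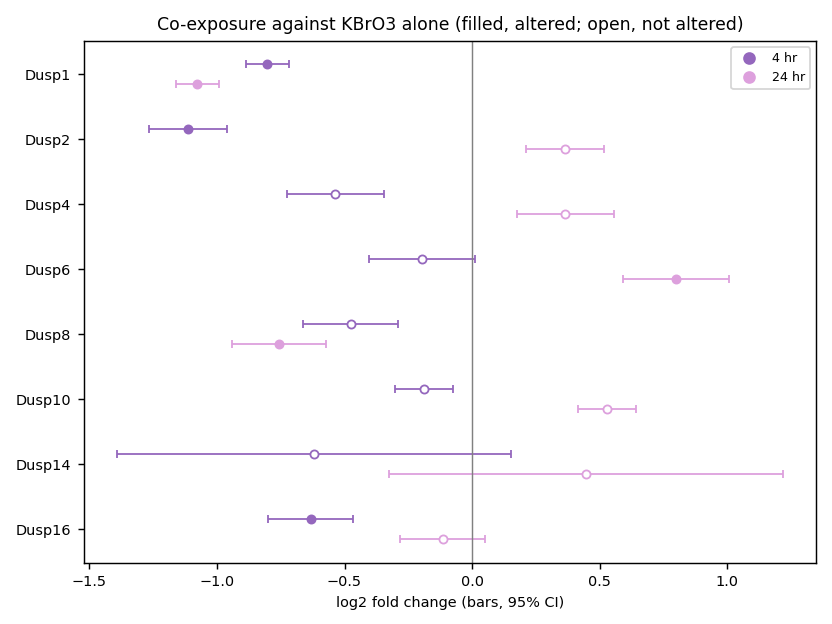
Log2 difference of co-exposure from KBrO3 alone (horizontal axis) at 4 and 24 hr for each member (vertical axis). Bars give the 95% confidence interval, and points are filled where the difference was called. Dusp1 is to the left of 0 at both times (−0.80 and −1.08), while Dusp2 goes from −1.11 to 0.36.

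BPA alone, in the second set, raised 2 members at 4 hr and lowered 0, beside 3.01% of 15740 genes called higher and 1.67% called lower. Dusp6 read 1.51, 1.36 and 1.54 in the controls of this set, 2.96, 3.48 and 3.56 at 4 hr and 2.38, 3.23 and 2.33 at 24 hr. Both BPA groups lay wholly above the controls, and they overlapped each other. The 4 hr rise was 3.64-fold (log2 1.86 ± 0.28 SE, adjusted p = 0.00814), whereas the 24 hr difference of 1.18, or 2.26-fold, did not pass (adjusted p = 0.0562). The 4 hr call ended without BPA 4 hr replicate 3 (log2 1.75, adjusted p = 0.0526), with normexp (log2 1.77, adjusted p = 0.190) and with the slide as a fixed block (log2 1.75, adjusted p = 0.295).

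Dusp10 read −1.49, −1.63 and −1.30 in these controls, −0.79, −0.34 and −0.36 at 4 hr of BPA and −0.77, −0.89 and −1.31 at 24 hr. The 4 hr arrays were above all controls, and the 24 hr arrays overlapped both groups. Its 4 hr rise was 1.96-fold (log2 0.97 ± 0.22 SE, adjusted p = 0.0423), and leaving out any one of 8 of the 9 arrays of the set ended the call, all but BPA 24 hr replicate 3. The Dusp10 call also ended with the slide as a fixed block (log2 0.91, adjusted p = 0.419) and with the replicate block (adjusted p = 0.105), and 7 of 14 alternatives kept it. Dusp2, at −4.57, −4.37 and −5.49 in the controls, −3.75, −3.44 and −3.65 at 4 hr and −3.54, −4.14 and −3.58 at 24 hr, was above the controls on every BPA array, but neither its 2.29-fold at 4 hr (adjusted p = 0.0669) nor its 2.08-fold at 24 hr (adjusted p = 0.108) passed the test.

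At 24 hr of BPA alone 0 members were called in either direction, beside 1.83% of genes called higher and 2.5% called lower, and between 24 and 4 hr of BPA 0 were called, beside 1.25% higher and 3.06% lower. At an unadjusted p below 0.05, limma gave 2 members (Dusp2 and Dusp6) of 8 in the first comparison, beside 20.8% of all genes, and 1 (Dusp6) in the second, beside 21.3%, so neither count is read as a result about the members. At 4 hr Dusp1, Dusp4, Dusp8, Dusp14 and Dusp16 differed from the control by between −0.30 and 0.58 with adjusted p of 0.335 or more. Within the slides that held both groups, the Dusp6 difference was 1.75 at 4 hr and 1.02 and 1.69 at 24 hr, and the Dusp10 difference was 0.91 at 4 hr. The sets used other scanner software and controls, so the BPA and KBrO3 differences were not tested against each other.

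**Figure D4:**
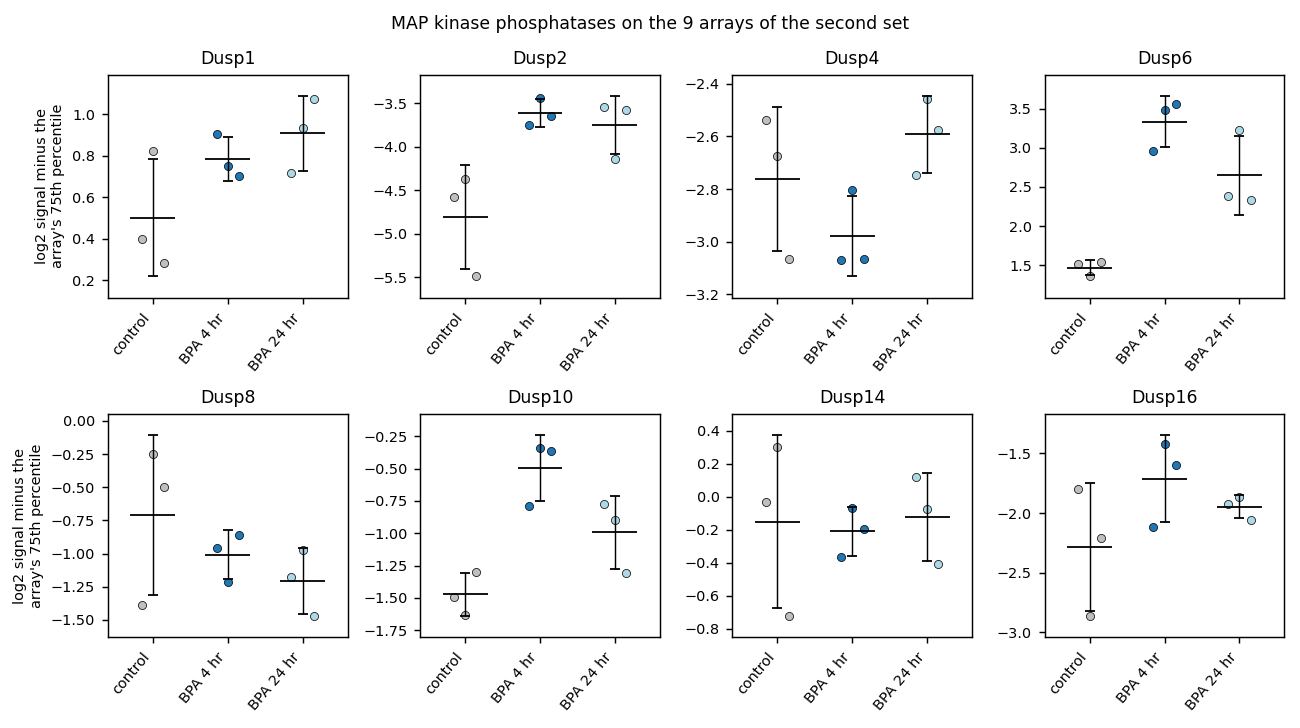
Log2 signal relative to each array's 75th percentile (vertical axes) for each member in the controls, BPA 4 hr and BPA 24 hr groups of the second set (horizontal axes). Points are single arrays with the mean and SD of 3. The Dusp6 points rise from between 1.36 and 1.54 in the controls to between 2.96 and 3.56 at 4 hr of BPA.

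Dusp4, Dusp8, Dusp14 and Dusp16 had more than 1 probe, 13 probes in all over the 8 members. The probes of Dusp4 moved together in all 4 comparisons with the control in the first set. The second probe of Dusp8 was called in the same direction as the first at 4 hr of KBrO3 and at both co-exposure times, at 1.20, 1.27 and −0.79. It differed at 4 hr between co-exposure and KBrO3, at 0.06 against −0.48, so that its interaction of −1.13 was called (adjusted p = 7.64e-05) where that of the first probe, −0.28, was not.

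For Dusp14 the probes parted at 24 hr after KBrO3. The second probe read −1.15, −1.10 and −1.16 in the controls and −0.36, −0.30 and −0.28 at 24 hr after KBrO3, a rise of 1.77-fold (log2 0.82 ± 0.054 SE, adjusted p = 6.15e-08) with no array apart from its group, and it was the probe that rose from 4 to 24 hr. For Dusp16, 1 of 3 probes was called lower than in the control. The second probe (mm7, chr6:134729960-134730000, minus strand) gave 0.46, 0.08, −0.34 and −0.39 against the control in the order KBrO3 4 hr, co-exposure 4 hr, KBrO3 24 hr and co-exposure 24 hr, none of them called. The third was dim, at 1.19 under co-exposure at 4 hr (adjusted p = 0.0432) with overlapping arrays. The mean of the 3 probes ended each call of Dusp16 made with the first probe. From 4 to 24 hr after KBrO3 the second probe fell too, at −0.79 (adjusted p = 1.67e-06) beside −0.83 for the first, but the third stood at −0.071 (adjusted p = 0.904) and the mean of the 3 at −0.57, which was not called. From 4 to 24 hr of co-exposure the third was lower by −1.17 (adjusted p = 0.0453) and the mean of the 3 by −0.65 (adjusted p = 0.00422), where the first was not called.

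**Figure D5:**
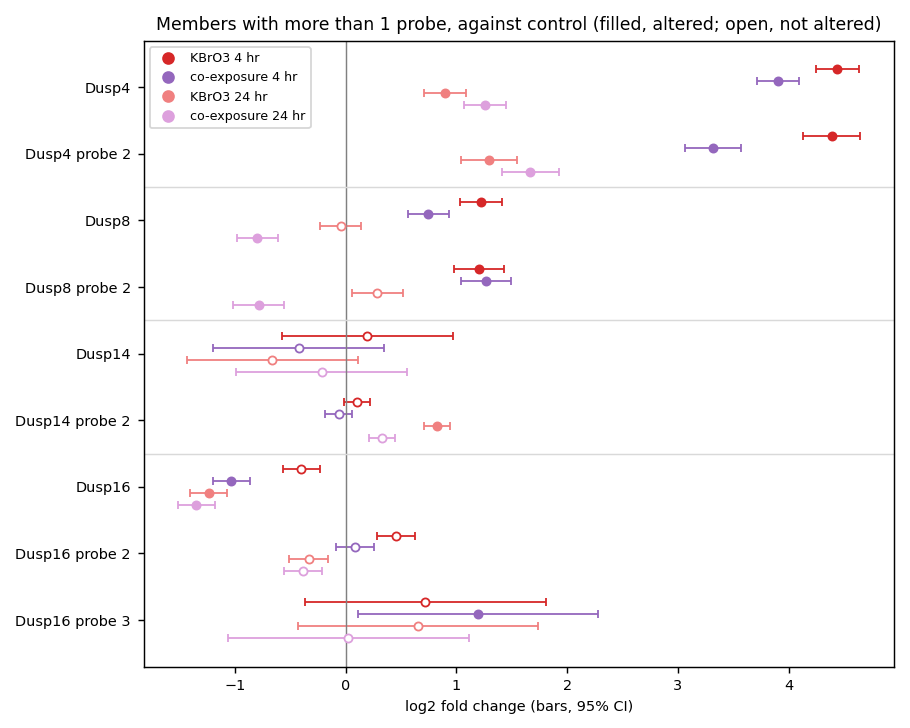
Log2 difference from the control (horizontal axis) in the first set for every probe (vertical axis) of the 4 members with more than 1 probe. Bars give the 95% confidence interval, and points are filled where the difference was called. The probes of Dusp4 run together, whereas those of Dusp14 part at 24 hr after KBrO3 (−0.66 and 0.82) and those of Dusp16 part in every group.

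Across the 15 arrays of the first set, Pearson's r between members was highest for Dusp6 and Dusp10 (0.995), followed by Dusp1 and Dusp8 (0.990) and Dusp4 and Dusp10 (0.981). These arrays fall into 5 groups, so the values describe group patterns and carry no test. Over the 9 arrays of the second set the Dusp6 and Dusp10 value was 0.919, while that of Dusp1 and Dusp8 was −0.22. Among 14099 other genes, the most alike to each member over the 15 arrays were Ccno for Dusp2 (r = 0.998), Fnbp1 for Dusp1 and for Dusp8 (0.992 for each), Lonrf3 for Dusp4 (0.997), Spata5 for Dusp6 (0.997), Ier5 for Dusp10 (0.998), Elob for Dusp14 (0.879) and Nsg1 for Dusp16 (0.991). Of these, Spata5 with Dusp6 (0.948) and Elob with Dusp14 (0.890) were also close over the 9 arrays, and the rest lay between −0.066 and 0.59 there. The Dusp14 value over the 15 arrays includes the low array, KBrO3 24 hr replicate 1. There the probe read −2.01 and the second Dusp14 probe −0.36, and r without that array was not computed.

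The other genes of the pathway were read from lists of kinases, inhibitors and targets. The ERK phosphatase Dusp9 was 9.83-fold higher at 4 hr after KBrO3 (log2 3.30, adjusted p = 6.93e-10), and Dusp7, also an ERK phosphatase, was not called there and was lower under co-exposure at 4 hr (log2 −0.76, adjusted p = 4.82e-07). Of 15 other dual-specificity phosphatases tested, 1 was higher (Dusp12 at 0.70) and 6 were lower (Dusp19 furthest, at −1.12) at 4 hr after KBrO3, which is 6.67% and 40% of the list beside the 21.1% and 22.8% of all genes. The MAP kinases themselves had 1 higher, Mapk6 at 1.86, and 3 lower of 11 (9.09% and 27.3%), and the kinases of the next tier, MAP kinase kinases, had 4 higher and 1 lower of 7 (57.1% and 14.3%), led by Map2k3 at 2.15. The MAP kinase kinase kinases had 4 higher and 7 lower of 21 (19% and 33.3%), with Map3k20 highest at 1.48 and Map3k12 lowest at −1.74. The shares of the kinase kinase kinases called higher and of the MAP kinases called lower lay near those of all genes.

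Feedback inhibitors of receptor and RAS signaling had 5 higher and 1 lower of 11 (45.5% and 9.09%) at 4 hr after KBrO3, led by Errfi1, an inhibitor of the EGF receptor, at 3.51 (11.4-fold, adjusted p = 3.02e-13). Immediate early genes, transcribed within minutes of MAP kinase activation, had 18 higher and 0 lower of 21 (85.7% higher, beside 21.1% of all genes), with a median of 2.25, and 17 higher and 1 lower under co-exposure (81% and 4.76%, beside 28.1% and 26.5%), where the stress-responsive factor Atf3 stood at 6.51. At 24 hr they had 5 higher and 5 lower after KBrO3 (23.8% each, beside 12.7% and 21% of all genes) and 8 higher and 5 lower under co-exposure (38.1% and 23.8%, beside 15.7% and 23.9%), so the shares called lower were close to those of all genes. At 4 hr of BPA alone, 14 of 21 immediate early genes were higher (66.7%) and 0 lower, beside 3.01% of all genes called higher and 1.67% lower. Egr4 led them at 4.54 (adjusted p = 0.000128). Errfi1 at 2.30 and Map3k8 at 1.67 (adjusted p = 0.00370) were called higher, and Map2k6 at −1.13 (adjusted p = 0.0216) lower. Of 12 MAP kinases and 17 other dual-specificity phosphatases 0 were called, which is near the shares of all genes and is not read as a result about them.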

How the data were processed

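RNA of Ku70-/- mouse embryonic fibroblasts was labelled with Cy3 and hybridised to 24 one-colour arrays of 41174 probes on 43379 spots. The deposited intensity values are Agilent Feature Extraction processed signals, background-subtracted by the scanner software, which per the file headers was an older version for the 15 arrays of the first set than for the 9 of the second. The authors' series table held the same intensity on all 1080432 values compared, so it is not a separate source, although its fit is counted among the alternatives.

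Spots of one probe were averaged, and log2 of the intensity minus each array's 75th percentile was taken. A probe was kept where all 3 arrays of some group read well above background, which left 27310 probes for the first set and 31806 for the second. limma 3.58.1 in R 4.3.3 was fitted to each set with its own controls (lmFit and eBayes, two-sided, Benjamini-Hochberg over all probes tested), and a gene was called at an adjusted p below 0.05 and a fold beyond 1.5. The probe of highest mean over the 24 arrays stood for each gene. The fits were tested on simulated data. Replicates are 3 independent experiments per group, and the number of arrays limits the precision.

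The members and lists were chosen with earlier results of these data known. The text names every member, Xrcc6, some of the genes with the largest called rise or fall of a context list, and the genes most alike to each member by Pearson's r. Same-numbered arrays did not deviate together (mean r −0.029 over 30 pairs in the first set, 0.0020 over 9 in the second), so the fit has no replicate block. Alternatives were quantile, median and normexp (offset 50) scaling or correction, other filters, fits and thresholds, the slide or replicate as a block, the mean of a gene's probes, and leaving out each array. For the second set normexp used the median spot signal.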

Additional observations from a re-analysis of the deposited data

Results flagged for a closer look

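Within KBrO3 and within co-exposure, the effect against the shared control differed between 4 and 24 hr, which is the 24 hr against 4 hr difference tested by limma over all probes. After KBrO3 it differed for the representative probes of all 8 members, at −1.92 for Dusp1, −3.90 for Dusp2, −3.54 for Dusp4, −3.14 for Dusp6, −1.26 for Dusp8, −3.16 for Dusp10, −0.86 for Dusp14 and −0.83 for Dusp16 on the log2 scale. For Dusp14 the call was kept in 2 of 15 fits without 1 array, the difference was −0.27 without KBrO3 24 hr replicate 1, and the second probe was higher by 0.72 (adjusted p = 1.22e-07). Under co-exposure it differed for 6 members, at −2.19 for Dusp1, −2.42 for Dusp2, −2.64 for Dusp4, −2.15 for Dusp6, −1.55 for Dusp8 and −2.45 for Dusp10. Beside these counts, 28.6% of all genes were called lower and 19.2% higher after KBrO3, and 34.1% and 23.4% under co-exposure. The mean of all Dusp16 probes, at −0.57 after KBrO3, was not called.

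The difference made by BPA in KBrO3-treated cells itself differed between 4 and 24 hr for 4 members by the interaction term, at 1.48 for Dusp2, 0.90 for Dusp4, 0.99 for Dusp6 and 0.72 for Dusp10. Of all genes, 13.2% were called positive and 13.4% negative. With normexp 1 member was called, and the interaction cannot be told apart from the slide. Groups of 3 arrays were not tested for single arrays that stand apart.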

How the results depend on the processing

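Of the 47 member differences called, 628 values under alternatives that kept all arrays gave the same direction and call in 587 cases, the same direction without the call in 37 and the opposite direction in 4. The 4 were, with normexp, Dusp2 at 24 hr after KBrO3 (−0.034), Dusp4 at 24 hr after KBrO3 (−0.86) and Dusp4 at 24 hr of co-exposure (−0.48), and, with the mean of all probes, Dusp16 at 4 hr of co-exposure (0.080); the cause was not tested. The 628 values include those from the series table, which are the same intensities and could not differ. They also include the mean of a gene's probes, which leaves the values of a member with a single probe as they were. Without 1 array, 671 of 693 values kept direction and call, and 0 reversed. Median scaling moved the median log2 difference of all genes from −0.16 to 0.30 for co-exposure at 24 against 4 hr, and normexp moved it from 0.0065 to −0.32 for co-exposure at 4 hr.

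The number of members called in co-exposure against KBrO3 at 4 hr went from 3 to 5 with median scaling and to 1 with normexp, and at 24 hr from 3 to 1 at a Bonferroni-adjusted p below 0.01. KBrO3 at 24 hr went from 3 to 1 with normexp, and the interaction from 4 to 1 with normexp and with Bonferroni. BPA at 4 hr went from 2 to 1 with median scaling, without the filter and with only the arrays compared, and to 0 with normexp, Bonferroni and the slide as a fixed block. BPA at 24 hr went from 0 to 1 with only probes above background everywhere, with error weights and with the slide as a random block, and to 2 with all 24 arrays in 1 fit, which also took BPA 24 hr against 4 hr from 0 to 1. A fixed slide block could be fitted only for KBrO3 at 4 hr against the control, co-exposure against KBrO3 at 24 hr, co-exposure between the times and the BPA comparisons.

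The replicate block took BPA at 4 hr from 2 to 1, with Dusp10 no longer called (adjusted p = 0.105), and changed no other call; the labels do not say that the numbers pair the arrays. Without 1 array the counts lay between 6 and 6 (KBrO3 4 hr), 7 and 7 (co-exposure 4 hr), 3 and 4 (KBrO3 24 hr), 5 and 6 (co-exposure 24 hr), 3 and 4 and 3 and 3 (co-exposure against KBrO3 at 4 and 24 hr), 7 and 8 and 6 and 6 (24 against 4 hr after KBrO3 and under co-exposure), 4 and 5 (interaction), 0 and 2 (BPA 4 hr), and 0 and 0 for the other BPA comparisons. For BPA at 4 hr, 8 of the 9 arrays ended the Dusp10 call when left out, and leaving out BPA 4 hr replicate 3 also ended the Dusp6 call. Signal over background limits the dimmer Dusp4 probe, which no control array of the first set measured above background.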

Other observations

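At 24 hr the feedback inhibitors of receptor and RAS signaling had 1 member higher and 4 lower of 11 after KBrO3 (9.09% and 36.4%, beside 12.7% and 21% of all genes) and 1 higher and 6 lower under co-exposure (9.09% and 54.5%, beside 15.7% and 23.9%). Errfi1 was the one higher in both, at 1.11 (adjusted p = 1.11e-08) and 0.95 (adjusted p = 3.32e-08) on the log2 scale by limma. Spry4, which restrains RAS signaling and was not above background at 24 hr after KBrO3, was at least 3.03-fold lower than in the control there, and Spry1, of the same family, was lower by −1.51 under co-exposure (adjusted p = 6.68e-10). Among 15 other dual-specificity phosphatases Dusp28 was the one higher at 24 hr after KBrO3, at 1.22 (adjusted p = 7.34e-09), and it stood at 1.53 under co-exposure (adjusted p = 6.09e-10). Dusp9 remained above the control at 24 hr, at 1.31 after KBrO3 (adjusted p = 6.39e-06) and 1.67 under co-exposure (adjusted p = 5.86e-07).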
